A study of Oryzias latipes with 20 samples.

Results

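Genes of interferon signalling, antigen presentation, complement and cytokine signalling were followed in medaka (Oryzias latipes) brain over 7 days of sampling. A gene was taken in when its protein description in the deposited table named an interferon, an MHC class or histocompatibility antigen, a complement component C, a suppressor of cytokine signaling (SOCS) or a signal transducer and activator of transcription (STAT). It also had to reach a mean of at least 1 FPKM (a level of RNA that allows for the length of the gene and the size of the library) over all libraries. The descriptions fitted 131 of 22615 genes, and 70 of these reached the mean, among 15947 genes that did so in all. Of the 70 members, 28 had a gene name and 42 only a locus number, and for the latter the name in brackets is the one in the protein description.

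The tissue was a block of ventral telencephalon, hypothalamus and pituitary. Fish were moved to conditions the labels call LW, and tissue was taken 0, 7, 30, 60, 90, 120 and 150 days after that transition. Every sample title is the word constant followed by a number. Each day had 3 libraries except day 60, which had 2, giving 20 libraries. The replicate numbers used here are not in the labels. They follow the order of the samples within each day and link no libraries of different days. Strain, sex and age of the fish, and whether a library came from 1 fish or a pool, are not given in the labels.

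Interferons are secreted proteins that cells release when they sense viral nucleic acid or other danger signals. Their receptors act through JAK kinases and STAT transcription factors, which together with interferon regulatory factors (IRFs) switch on antiviral effectors and MHC class I genes, while SOCS proteins are induced by the same pathway and shut it down again. MHC molecules display peptides to T cells, complement is a cascade of proteins that marks and lyses targets, and in brain much of the MHC class II and C1q RNA is known to come from microglia.

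The 70 members fell into 13 classes by their descriptions: 2 interferon receptors, 7 IRFs, 14 interferon-induced genes, 6 STATs, 9 SOCS genes, 5 MHC class I genes, 6 MHC class II genes, 3 regulators of class II genes, 5 complement components, 4 other proteins named after C1q, 5 IRF2-binding proteins, 3 genes named after interferon for other functions and 1 minor histocompatibility antigen. Mean levels ran from 1.01 FPKM for LOC101159074 (complement C1q subunit C) to 135 FPKM for cd74, the invariant chain of MHC class II. Of the 61 matching genes below the mean, 46 did not reach 1 FPKM in any library and 15 did. Just below it stood LOC101172710 (interferon-induced protein with tetratricopeptide repeats 1-like) at a mean of 0.9355 FPKM and LOC101164560 (complement C1q-like) at 0.916 FPKM. The interferon a3-like ligand genes LOC110017164 and LOC110014574 were both below it, with highest values of 0.24 and 0.09 FPKM in any library.

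Total FPKM per library ran from 374770 to 405678. Pituitary markers were hormone genes and the transcription factor gene pitx1, and gh was not found by name. Their RNA differed widely between libraries. Its summed level lay between 136.33 FPKM in day 60 replicate 1 and 4986.98 FPKM in day 150 replicate 2. On day 150 the sum was 2603.48 FPKM or more, and on every other day it was at most 2349.9 FPKM. The part of this in differences of day 150 was not tested. Day 150 replicate 2 also stood apart in the whole transcriptome, holding the highest value of 12.7% of all genes, but of 3 of the 70 members. Of the 3 T cell marker genes found, lck and LOC101170171 stayed under 1 FPKM in every library, while cd4 did not. Equally low were pax5 and LOC101163666 among 4 B cell genes, and lyz and mmp9 among 3 granulocyte genes. Each of these lists had 1 gene with a mean of at least 1 FPKM. The T cell markers cd3e and cd8a and the granulocyte marker mpx were not found by name, so absence of these cells was not shown.

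Pooled over the 7 days, the members were noisier between libraries of the same day than genes at large. Their median residual SD was 0.252 on the log2(FPKM + 1) scale, against 0.157 for all genes tested, and 23 of the 70 lay among the 10% of all genes with the widest spread. MHC class I genes had the widest spread, with a median residual SD of 0.753, followed by interferon-induced genes at 0.513. The IRF2-binding proteins had the narrowest, at 0.082. Differences within day 90 enter this spread. The gene socs3, at the 91.6th percentile of all genes tested, held to 1.94 to 3.44 FPKM in the 17 libraries of the other days. By contrast, LOC101175175 (class I), at the 99.6th percentile, varied within each of the 7 days. The part of day 90 in the members' spread was not tested.

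**Figure D1:**
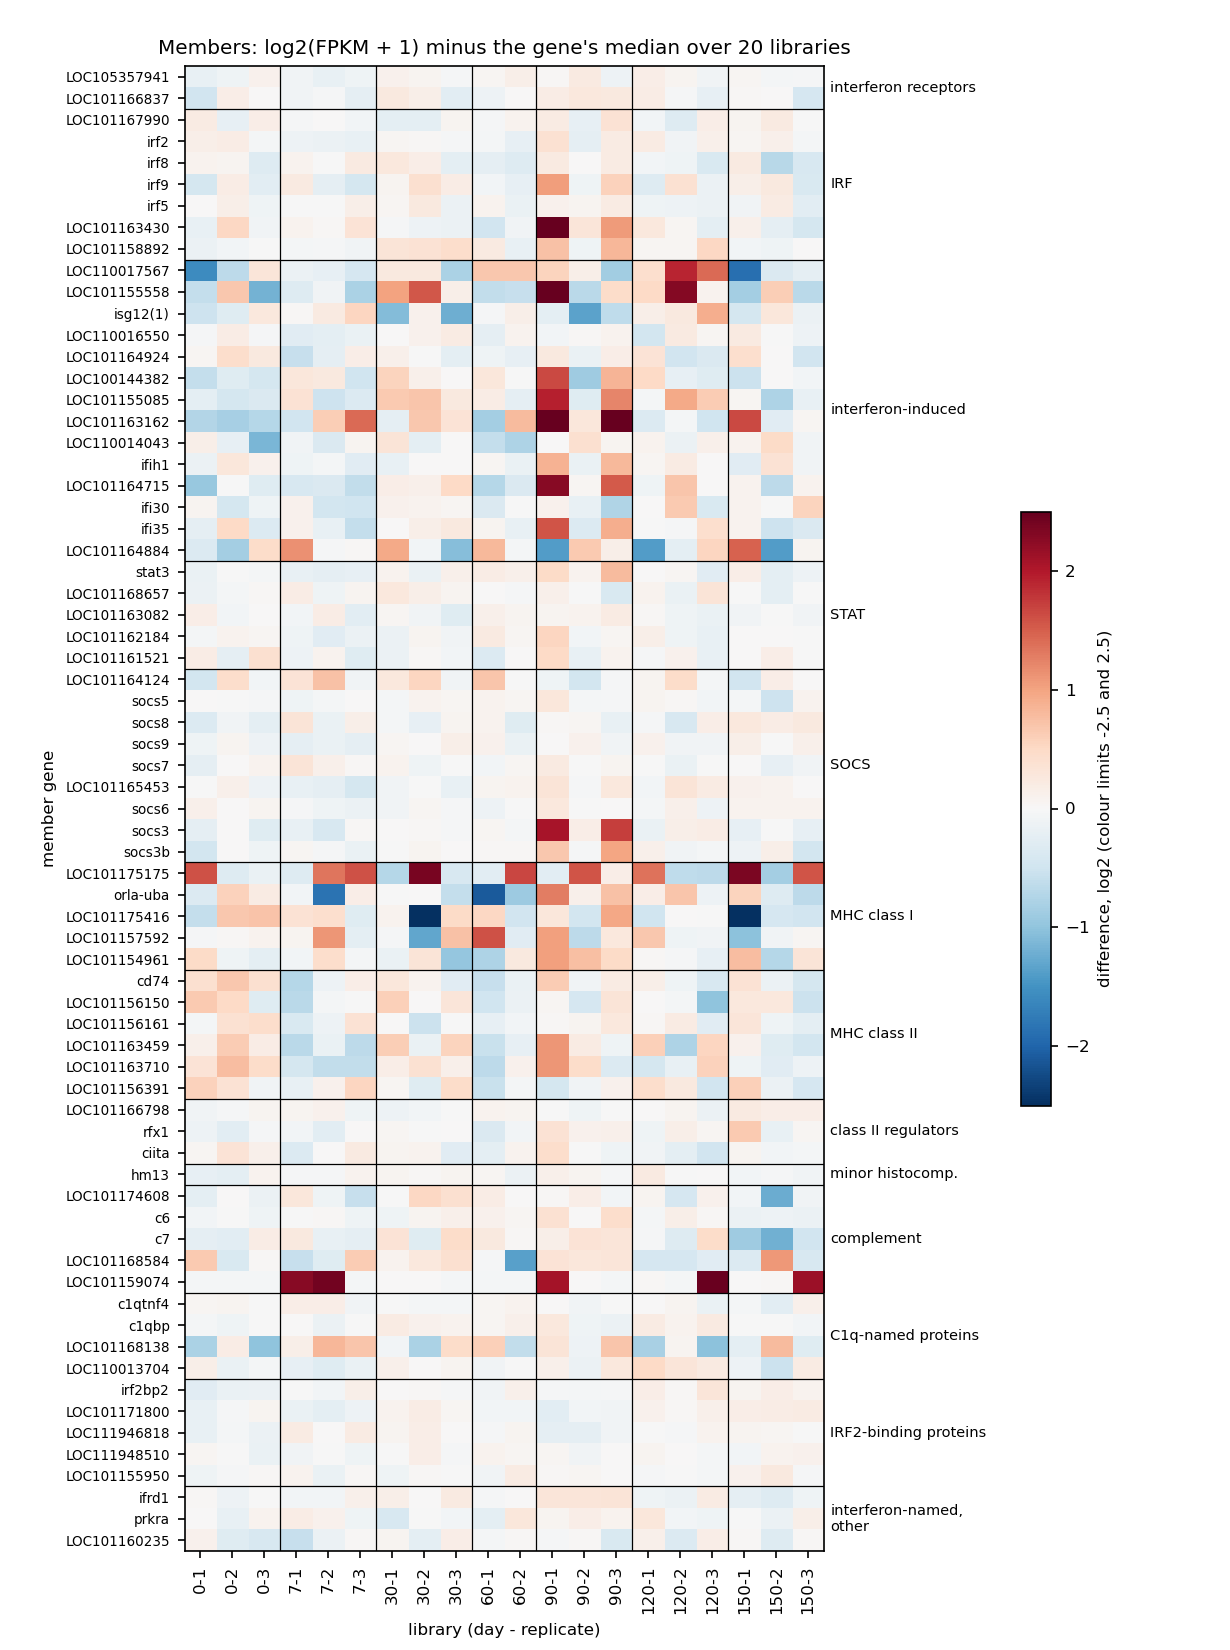
Each row is 1 member, grouped by class, and each column 1 of the 20 libraries, named by day and replicate. Colour gives log2(FPKM + 1) minus the median of that gene over the libraries, clipped at 2.5 either way. Red cells of day 90 replicates 1 and 3 stand together in rows such as LOC101163430, LOC101155085, LOC101163162, LOC101164715, ifi35 and socs3, where day 90 replicate 2 is pale or blue.

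The 3 day 90 libraries did not look alike. Day 90 replicate 1 stood above all 17 libraries of the other days in 28 of the 70 members (40%), where 7.32% of all genes did so. Day 90 replicate 3 did in 20 members (28.6%, against 7.45% of all genes). In day 90 replicate 2 the count was 3 members, or 4.29%, beside 3.77% of all genes. Below all 17 lay 2, 4 and 2 members in replicates 1, 2 and 3, beside 4.77%, 4.92% and 5.61% of all genes. The lists of replicates 1 and 3 shared 16 members, which is 57.1% of the first and 80% of the second. Over all genes the shared part was 27.2% and 26.7%. Lists that take in more of a set share more by themselves, and these held 40% and 28.6% of the members but 7.32% and 7.45% of all genes. The shared parts therefore do not show that replicates 1 and 3 agreed more in the members than in genes at large.

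By class, replicates 1 and 3 each exceeded the other days in 4 of the 7 IRFs. Among the 14 interferon-induced genes the counts were 7 and 6, among the 6 STATs 4 and 3, among the 9 SOCS genes 5 and 2, and among the 5 MHC class I genes 2 and 2. Day 90 replicate 2 exceeded them in none of these genes. Its 3 high members were both interferon receptors and ifrd1. In other classes replicates 1 and 3 were above the other days in 2 and 0 of 6 MHC class II genes and 1 and 1 of 5 complement components. They were so in 1 and 0 of 3 class II regulators and 1 and 0 of 4 C1q-named proteins. Among the 5 IRF2-binding proteins the counts were 0 and 0, and 2 lay below the other days in replicate 1. Seen the other way, day 90 replicate 1 held the highest value of all 20 libraries for 23 members, where this library held it for 6.15% of all genes. For 8 members it was replicate 3, which held it for 6.12% of all genes.

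**Figure D2:**
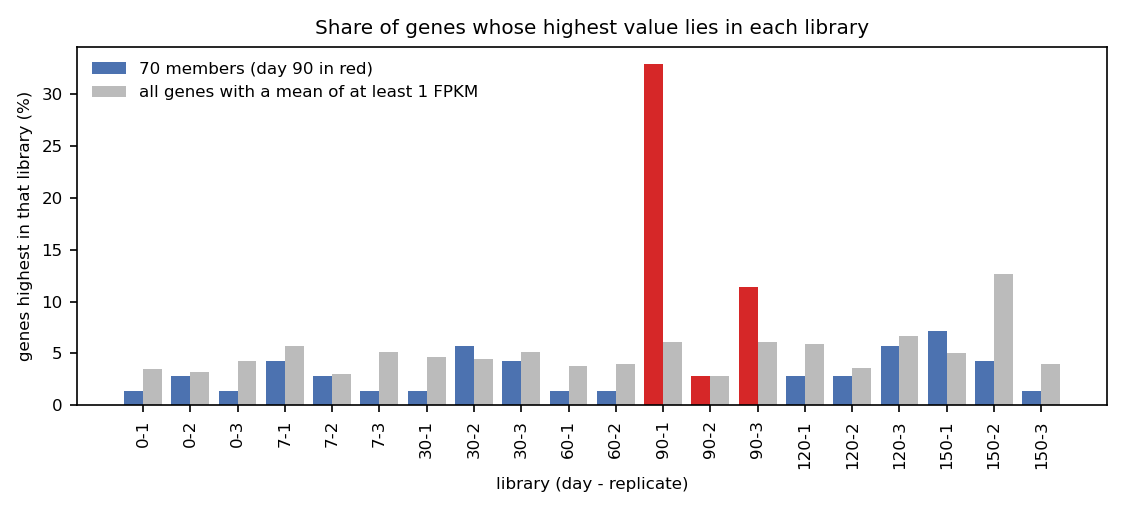
Bars give, for each library, the percent of genes whose highest value over the 20 libraries lies there, for the 70 members (blue, day 90 in red) and for every gene tested (grey). Day 90 replicate 1 holds 32.9% of the members, and the tallest grey bar, at 12.7%, is day 150 replicate 2.

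The test of day 90 against the mean of the other 6 days (limma on log2(FPKM + 1), adjusted by Benjamini-Hochberg over all 15947 genes, threshold 0.05) called 1 of the 70 members higher and 0 lower, where 0.144% of all genes were called higher and 0.0251% lower. At an unadjusted p under 0.05 it had 19 members higher and 3 lower, beside 5.54% and 4.01% of all genes. In all, 53 of the 70 had a positive log2 difference, with a median of 0.15, while the median of all genes was 0.001. That median was 0.137 to 0.185 under a pseudocount of 0.1, both rescalings and sample weights. It came to 0.27 without day 90 replicate 2 and to 0.009 without day 90 replicates 1 and 3.

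Leaving out day 90 replicate 2 raised the count of members called from 1 to 13, where 0.627% of all genes were then called higher and 0.0627% lower. Among those 13 were socs3, socs3b, stat3, c6, ifih1, ifi35, LOC101163430 (IRF1), LOC101158892 (IRF3), LOC101163162 (Mx-like), LOC101164715 (IFI44-like), LOC101155085 (IFIT1B-like) and LOC100144382 (the RNA-activated kinase PKR). Leaving out replicate 1 or replicate 3 instead gave 0 members called. The share of all genes called in those fits is not given here, so this count is not a result about the members alone. Against day 0 alone, 0 of the 70 members were called at day 90 with all libraries (0% of all genes higher, 0% lower), with 15 members higher and 0 lower at an unadjusted p under 0.05, beside 5.12% and 3.15% of all genes. Without replicate 2 this became 11 higher and 0 lower, where 0.332% of all genes were called higher and 0.0439% lower. In every member called without replicate 2, that library read lower than replicates 1 and 3. Leaving it out therefore raises the difference by construction, and these calls are no separate evidence of a day 90 difference. What set day 90 replicate 2 apart from its companions was not tested.

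Markers of microglia and other leukocytes were read in the same libraries. Over all genes, 7.32%, 3.77% and 7.45% were above all 17 libraries of the other days in day 90 replicates 1, 2 and 3. Of 12 microglia and leukocyte markers tested, 6 were so in replicate 1, 6 in replicate 3 and 0 in replicate 2. Their summed level was 207.52, 202.27 and 242.6 FPKM in replicates 1, 2 and 3, and 48.6 to 238.41 FPKM elsewhere, with 0 of 12 called and a median log2 difference of 0.47 for day 90 against the other days. csf3r, a receptor of granulocytes, was the 1 granulocyte marker above the mean of 1 FPKM and had 3.35, 3.27 and 3.86 FPKM at day 90 against 0.9 to 2.88 FPKM elsewhere (adjusted p = 0.0832, limma). Hemoglobin and other red blood cell markers summed to 1043.15, 888.95 and 352.13 FPKM at day 90 and to 428.84 to 3882.56 FPKM elsewhere. Endothelial markers summed to 51.21, 45.51 and 67.8 FPKM against 31.59 to 53.75 FPKM. Of 8 endothelial markers tested, 1, 0 and 5 were above all 17 libraries of the other days in day 90 replicates 1, 2 and 3. Replicate 3 was so in 0 of 6 pituitary, 0 of 8 hypothalamus, 0 of 7 neuron and 0 of 5 oligodendrocyte markers. It was so in 0 of 7 red blood cell markers and 1 of 3 astroglia markers. Of the T cell markers, cd4 alone carried a level above 1 FPKM and read 14.72, 20.53 and 17.52 FPKM, within the 7.36 to 34.26 FPKM of the other days. B cell markers summed to 3.94, 1.98 and 3.65 FPKM, within 0.8 to 4.25 FPKM. The part of these cells in the differences below was not tested, and in a block of tissue more cells of a type and more RNA per cell cannot be told apart.

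The interferon receptors did not follow the order of the 3 day 90 libraries seen in the counts. LOC105357941 (interferon gamma receptor 1-like) had 37.76, 43.79 and 34.0 FPKM in day 90 replicates 1, 2 and 3, and LOC101166837 (interferon alpha/beta receptor 1a) had 8.14, 8.67 and 8.59 FPKM. On the other days they ranged over 32.47 to 41.75 FPKM and 4.83 to 8.57 FPKM. All 3 day 90 libraries thus lay near or above the top of the range for the second receptor, whose log2 difference from the other days was 0.29 ± 0.13 (SE, adjusted p = 0.477, limma).

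Among the IRFs, which bind the promoters of interferon and interferon-induced genes, LOC101163430 (IRF1) had the widest gap. It read 24.37, 2.69 and 5.28 FPKM in day 90 replicates 1, 2 and 3, and 1.15 to 3.29 FPKM with a median of 1.81 in the 17 other libraries. Replicate 1 was thus 13.5 times and replicate 3 2.92 times that median, and replicate 2 lay inside the range of the other days. The log2 difference of day 90 from the other days was 1.53 ± 0.35 (SE), with an adjusted p of 0.0913 (limma), and 2.13 ± 0.33 without replicate 2 (adjusted p = 0.00504). Without replicate 1 it was 0.73 (adjusted p = 0.318), and without replicate 3 it was 1.74 (adjusted p = 0.236).

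irf9, the partner of STAT proteins in the complex that answers type I interferon, read 10.47, 4.14 and 7.26 FPKM at day 90 and 3.06 to 6.3 FPKM elsewhere. LOC101158892 (IRF3), which relays RNA sensing to interferon genes, read 4.07, 1.82 and 4.4 FPKM, and 1.68 to 3.36 FPKM elsewhere. In both, replicates 1 and 3 were above every library of another day and replicate 2 was below the median of those days. irf2, an antagonist of IRF1, read 7.77, 4.74 and 6.72 FPKM, so that replicate 1 was the highest and replicate 2 the lowest of the 20 libraries. LOC101167990, whose description names both IRF4 and a dual specificity phosphatase, was highest in replicate 3 with 11.94 FPKM. irf8 and irf5, both known from myeloid cells, stayed within the range of the other days in all 3 day 90 libraries, at 5.27 to 6.28 FPKM and 4.83 to 5.4 FPKM. irf5 is outside the naming rule and is given to complete the class.

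Of the interferon-induced genes, LOC101163162 (Mx-like), a GTPase that blocks viral replication, had the largest log2 difference of day 90 from the other days. It stood at 22.04, 2.17 and 14.48 FPKM in day 90 replicates 1, 2 and 3. On day 0 it read 0.57, 0.45 and 0.58 FPKM, on day 7 0.85, 2.97 and 5.95 FPKM, and on day 150 7.15 FPKM in replicate 1 and at most 1.69 FPKM in the other 2. Days 30, 60 and 120 lay between 0.43 and 3.5 FPKM. The 3 libraries of day 0 lay closest together, while within days 7, 60, 90 and 150 the highest library was over 6 times the lowest. Day 90 exceeded the other days by 1.98 ± 0.51 on the log2 scale, with an adjusted p of 0.156 (limma), and by 2.84 ± 0.48 without replicate 2 (adjusted p = 0.00928). The difference was 1.41 without replicate 1 (adjusted p = 0.558) and 1.69 without replicate 3 (adjusted p = 0.536).

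LOC101164715 (IFI44-like), a gene induced by type I interferon, read 15.39, 2.5 and 8.74 FPKM at day 90 and 0.74 to 4.43 FPKM elsewhere. LOC101155085 (IFIT1B-like), of a family that binds foreign RNA, read 15.56, 2.5 and 9.01 FPKM and 1.54 to 7.32 FPKM elsewhere. LOC100144382 (PKR), a kinase that halts translation on double-stranded RNA, read 16.28, 1.97 and 8.97 FPKM and 2.66 to 7.13 FPKM elsewhere. In all 3 genes replicates 1 and 3 were the 2 highest of the 20 libraries, and for PKR replicate 2 was the lowest. With all libraries the log2 differences from the other days were 1.48 ± 0.32, 0.91 ± 0.32 and 0.58 ± 0.34, and the smallest adjusted p, that of IFI44-like, was 0.0767 (limma).

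Outside the naming rule and picked after their values were seen, ifih1, a sensor of viral RNA, read 6.21, 2.51 and 5.96 FPKM against 2.24 to 4.07 FPKM elsewhere. ifi35 read 7.2, 1.18 and 4.21 FPKM against 0.83 to 2.89 FPKM. Both had replicates 1 and 3 above all other days and replicate 2 below their median, and neither passed the test with all libraries (adjusted p = 0.303 and 0.352, limma).

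**Figure D3:**
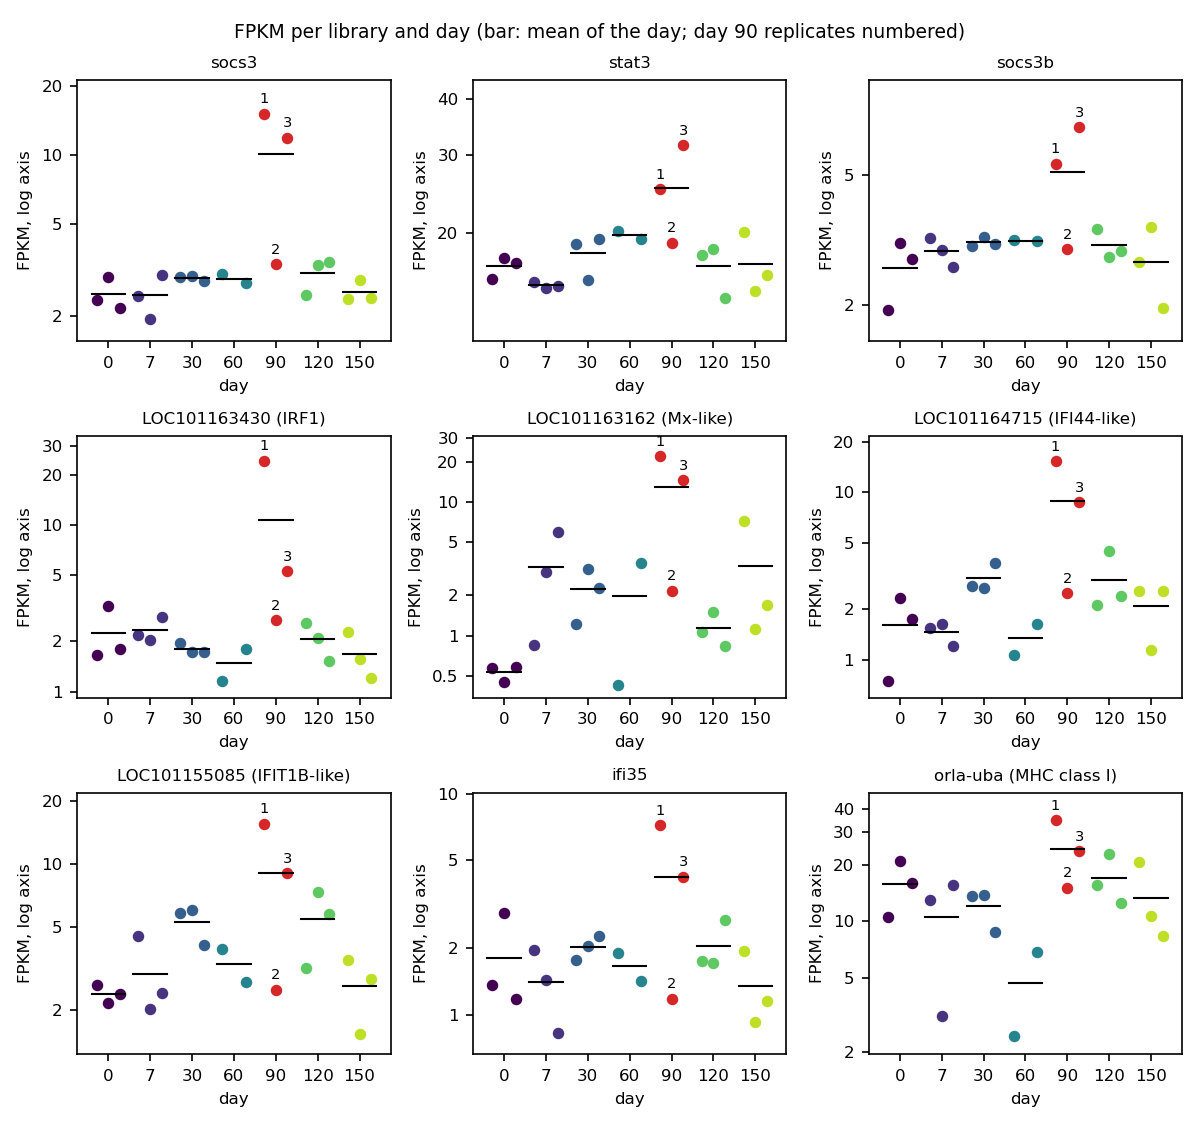
Points are single libraries by day, bars the mean of the day, and the y axis is FPKM on a log scale. The numbers at day 90 name the replicates. In each of the 9 genes plotted, from socs3 to orla-uba, replicates 1 and 3 lie above every library of the other days, while replicate 2 lies within their range.

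In the other genes of the interferon-induced class, day 90 replicates 1 and 3 did not both lie above all other days. 3 neighbouring genes described as interferon alpha-inducible protein 27, LOC101155558, LOC110017567 and isg12(1), were the most abundant of the class. LOC101155558 read 519.71, 40.07 and 88.94 FPKM at day 90 and 27.9 to 319.85 FPKM elsewhere, its second highest library being day 120 replicate 2. LOC110017567 was highest there instead, with 130.5, 369.05 and 261.31 FPKM on day 120 and 144.69, 108.04 and 52.92 FPKM on day 90. isg12(1) read 75.29, 34.83 and 57.67 FPKM at day 90, below its median of 96.56 FPKM in the other libraries. Genes of like sequence can share fragments in the authors' counting. How alike these 3 are was not tested, so the division between them is uncertain. LOC110017567 differed from day 0 by 1.89 ± 0.52 on the log2 scale at day 120, the largest such difference in the class on that day, with an adjusted p of 0.312 (limma).

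LOC101164884, a second Mx-like gene beside LOC101163162, went its own way. It was listed at 0 in day 90 replicate 1, day 120 replicate 1 and day 150 replicate 2, and read 6.31 FPKM in day 150 replicate 1 and 3.16 FPKM in day 90 replicate 2. Day 90 replicate 1 thus held the highest value of one Mx-like gene and listed the other at 0. How alike these neighbours are was not tested, so the division of fragments between them is uncertain. Being listed at 0 in one library and at 2 FPKM or more in another occurred in 2 of the 70 members and in 1.56% of all genes. The remaining 4 genes of the class, ifi30 and LOC101164924 (lysosomal thiol reductases that help to unfold antigens), LOC110014043 (IFIT1-like) and LOC110016550 (PKR-like), read 1.08 to 12.73 FPKM over all libraries. None of these 4 was above the other days in day 90 replicate 1 or 3.

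STAT proteins carry the signal from cytokine receptors to the nucleus. stat3, which in mammals answers interleukin 6 and leptin among others, read 25.09, 19.01 and 31.51 FPKM in day 90 replicates 1, 2 and 3. The other libraries ran from 14.3 to 20.2 FPKM with a median of 17.12. Replicate 3 was the highest of the 20 libraries and replicate 1 the next, and replicate 2 lay within the range of the other days. Day 90 exceeded the other days by 0.50 ± 0.11 on the log2 scale, with an adjusted p of 0.0866 (limma), and by 0.68 ± 0.11 without replicate 2 (adjusted p = 0.00627). It was 0.49 without replicate 1 (adjusted p = 0.318) and 0.33 without replicate 3 (adjusted p = 0.494).

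LOC101162184 (STAT5B-like) and LOC101161521 (STAT4) were highest in day 90 replicate 1, at 4.08 and 2.07 FPKM, and replicate 3 fell within the other days for both. LOC101163082 (STAT5B-like), which neighbours stat3 in the RefSeq gene order, read 4.89, 4.97 and 5.43 FPKM against 3.5 to 5.35 FPKM elsewhere. LOC101168657 (STAT5B) went the other way in replicate 3, its 4.55 FPKM being the lowest of the 20 libraries.

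SOCS proteins are induced by STATs and inhibit the receptors and JAK kinases upstream. socs3, which in mammals curbs signalling by leptin and interleukin 6, was the member called. It read 15.17, 3.35 and 11.91 FPKM in day 90 replicates 1, 2 and 3. The 17 other libraries held to 1.94 to 3.44 FPKM with a median of 2.84, so replicates 1 and 3 were 5.34 and 4.19 times that median and replicate 2 was 1.18 times. Day 90 exceeded the mean of the other days by 1.38 ± 0.24 on the log2 scale (adjusted p = 0.0361, limma). The call was lost in 9 of the 20 fits that left out 1 library, with adjusted p of 0.0542 to 0.0607 in 7 of them. It came to 1.01 (adjusted p = 0.237) without replicate 1, to 1.18 (adjusted p = 0.236) without replicate 3 and to 0.23 (adjusted p = 0.999) without both.

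A second socs3 gene, described as socs3b, read 5.43, 2.96 and 7.03 FPKM at day 90 against 1.93 to 3.47 FPKM elsewhere. It differed from the other days by 0.60 ± 0.16 on the log2 scale (adjusted p = 0.163, limma). Both socs3 genes thus had replicates 1 and 3 above every other library, in opposite order. LOC101165453 (SOCS1), the main brake on interferon signalling, read 6.58, 4.97 and 6.28 FPKM, and 3.45 to 6.55 FPKM elsewhere. Its log2 slope over the 150 days was 0.059 ± 0.020 per 30 days (adjusted p = 0.292, limma).

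Of the other 6 SOCS genes, none had both day 90 replicates 1 and 3 above the other days. socs5 and socs6 were highest in day 90 replicate 1, at 14.0 and 5.65 FPKM. socs7 and socs8 peaked in day 7 replicate 1, at 7.09 and 10.69 FPKM, and LOC101164124 (SOCS2), which restrains growth hormone signalling, in day 7 replicate 2 at 47.09 FPKM. socs9 read 5.26, 5.49 and 5.22 FPKM on day 7, all below the 5.52 to 7.09 FPKM of the other 17 libraries, a position held by 1 of 70 members and 0.307% of all genes.

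MHC class I genes present peptides from inside the cell. orla-uba, a classical class I gene, read 34.73, 15.17 and 23.68 FPKM in day 90 replicates 1, 2 and 3. Elsewhere it ranged from 2.44 FPKM in day 60 replicate 1 to 22.88 FPKM in day 120 replicate 2, with a median of 13.03. Day 90 differed from the other days by 1.06 ± 0.37 on the log2 scale (adjusted p = 0.34, limma), and day 60 from day 0 by -1.65 ± 0.54 (adjusted p = 0.559).

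LOC101175175 (class I, Q10 alpha chain-like) took 3 separate ranges that cut across the days. It read 4.5 to 10.19 FPKM in 11 libraries, 24.04 to 30.83 FPKM in 7, and 49.76 and 50.33 FPKM in 2, day 150 replicate 1 and day 30 replicate 2. Its neighbour LOC101175416 (class I, F10 alpha chain) read 5.61 to 16.4 FPKM in the first set, 4.84 to 10.84 FPKM in the second, and 0.1 and 0.24 FPKM in the last pair. LOC101157592, the next class I gene along, was also at its lowest in that pair, at 0.55 and 0.28 FPKM, and its range elsewhere was 1.01 to 8.56 FPKM. Each of the 7 days had libraries in more than one range. Day 90 held replicate 2 in the middle range, at 28.52 FPKM, and replicates 1 and 3 in the lower, at 7.32 and 10.19 FPKM. The residual SD of LOC101175175 was 1.304 on the log2 scale, at the 99.6th percentile of all genes tested. Class I genes are known to differ between individuals and to resemble each other, and how the authors' counting divided fragments between them was not tested.

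**Figure D4:**
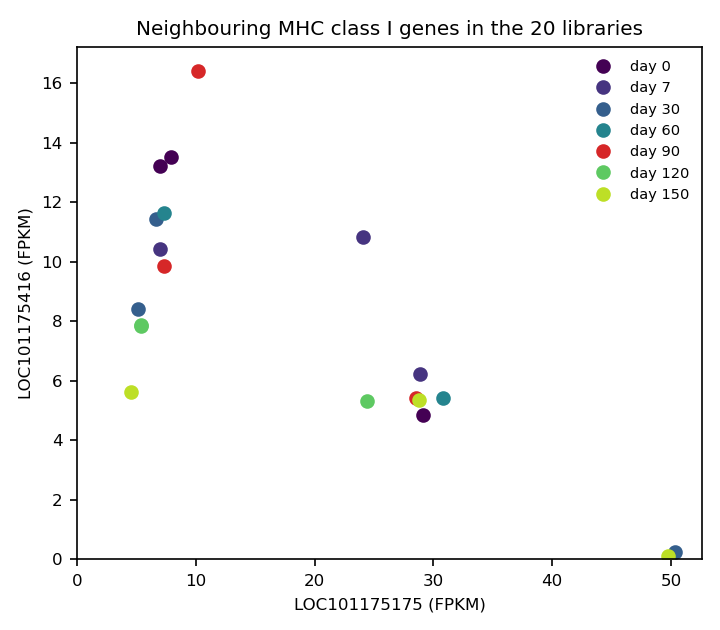
Each point is 1 library, with LOC101175175 on the x axis and its neighbour LOC101175416 on the y axis, both in FPKM and coloured by day. The x values form sets of 11, 7 and 2 libraries, and the last 2 lie near 0 on the y axis.

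The remaining class I gene, LOC101154961, next to LOC101157592, read 4.36, 3.43 and 2.69 FPKM at day 90 against 0.36 to 3.5 FPKM elsewhere, with a log2 difference of 0.80 ± 0.29 (adjusted p = 0.344, limma).

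MHC class II genes present peptides taken up from outside the cell. cd74 read 171.76, 208.23 and 171.35 FPKM on day 0. Its values were 78.32, 118.21 and 145.61 FPKM on day 7, 157.02, 137.84 and 106.51 FPKM on day 30, and 86.91 and 114.73 FPKM on day 60. Day 90 had 201.53, 121.58 and 150.3 FPKM, day 120 142.85, 120.4 and 97.71 FPKM, and day 150 167.18, 116.91 and 94.84 FPKM. All libraries of days 7, 30, 60, 120 and 150 were below all of day 0, and day 90 replicate 1 overlapped it. The same order was found for 6.38% of all genes on day 30, 11.5% on day 60, 6.08% on day 120 and 5.17% on day 150, and for 1, 7, 2 and 5 of the 70 members. The log2 differences from day 0 were -0.72 ± 0.25 on day 7 (adjusted p = 0.376, limma), -0.87 ± 0.28 on day 60 (adjusted p = 0.559) and -0.57 on day 150 (adjusted p = 0.484), so none passed the test.

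LOC101163710, a class II beta chain, read 2.3, 3.48 and 2.58 FPKM on day 0 and 0.94, 0.71 and 0.72 FPKM on day 7. Its neighbour LOC101163459, an alpha chain, read 2.07, 3.33 and 2.21 FPKM on day 0 and 0.77, 1.51 and 0.78 FPKM on day 7. In both genes day 90 replicate 1 held the highest value of all, at 4.65 and 5.04 FPKM. They and cd74 were among 11 of the 70 members with all of day 7 below all of day 0, beside 8.24% of all genes. The log2 differences of day 7 from day 0 were -1.07 ± 0.31 (adjusted p = 0.26, limma) and -0.81 (adjusted p = 0.539).

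All 6 class II genes had a lower mean log2 level on day 7 than on day 0, with a median of -0.63, and 0 of 6 passed the test. Over all 70 members the median of that comparison was -0.004, with 0 called higher and 0 lower beside 0.0564% and 0.00627% of all genes. Days 60, 120 and 150 had 0 of 6 class II genes above day 0 too, with medians of -0.65, -0.41 and -0.41. Day 30 had 2 of 6 above, with a median of -0.25, and day 90 had 1 of 6, with a median of -0.19. All of these comparisons rest on the same 3 libraries of day 0. The members not yet named, LOC101156150, LOC101156161 and LOC101156391, read 0.78 to 6.71 FPKM and were in no day 90 library above the other days. The 12 microglia and leukocyte markers also had negative median log2 differences from day 0 on these days, with 0 of 12 called on each. The median was -0.25 on day 7 (3 of 12 positive), -0.23 on day 30 (0 of 12), -0.22 on day 60 (3 of 12), -0.29 on day 120 (2 of 12) and -0.44 on day 150 (2 of 12), and 0.17 on day 90 (9 of 12). Their summed level was 65.43 to 144.56 FPKM on day 0 and 59.85 to 203.51 FPKM on day 7, and their part in the class II differences was not tested.

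None of the 3 members described as regulators of class II genes was called in any comparison. ciita, the transactivator that class II genes depend on, read 0.77 to 2.36 FPKM, its highest library being day 90 replicate 1. rfx1 read 5.07 to 11.26 FPKM and was highest in day 150 replicate 1. LOC101166798, a second gene described as RFX1, read 19.5, 18.69 and 18.9 FPKM on day 150, all above the 14.84 to 18.01 FPKM of the other 17 libraries, as for 0.383% of all genes. Its difference from day 0 was 0.20 ± 0.07 on the log2 scale (adjusted p = 0.429, limma). hm13, an intramembrane protease first known as a minor histocompatibility antigen, stayed within 22.51 to 31.65 FPKM.

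Complement components were led by genes of the lytic pore. c6 read 60.69, 47.18 and 63.31 FPKM in day 90 replicates 1, 2 and 3 and 41.83 to 51.43 FPKM elsewhere, so its replicates 1 and 3 were above all other libraries. Its log2 difference from the other days was 0.29 ± 0.07 (adjusted p = 0.112, limma). On day 150 it read 42.18, 42.86 and 41.83 FPKM, just below the 43.1 FPKM that was the lowest value of any other day. c7, which follows C6 in the pore, read 13.43, 10.64 and 18.2 FPKM on day 150 and 20.24 to 35.8 FPKM elsewhere. Lying wholly below the other days on day 150 held for these 2 of 70 members and for 0.188% of all genes. The summed RNA of the pituitary markers was wholly above the other days on day 150, and its part in these values was not tested. c7 differed from day 0 on day 150 by -0.75 ± 0.23 on the log2 scale, with an adjusted p of 0.347 (limma), and its F test over 7 days gave an adjusted p of 0.18.

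LOC101174608, a second gene described as C7 and the neighbour of c6, was the most abundant component. It read 60.6 to 130.95 FPKM in 19 libraries and 37.63 FPKM in day 150 replicate 2. LOC101168584 (C3), the central component of the cascade, read 1.83 to 14.38 FPKM, highest in day 150 replicate 2, and 8.2, 7.75 and 7.96 FPKM at day 90. LOC101159074 (C1q subunit C), part of the molecule that starts the classical pathway, read 3.35 to 4.71 FPKM in 5 libraries, among them day 7 replicates 1 and 2 and day 90 replicate 1. In the 15 others it stayed at 0.05 FPKM or less, and 9 of those listed it at 0.

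The 4 other proteins named after C1q are not cascade components. c1qtnf4, a secreted C1q-domain protein, stayed within 39.97 to 54.07 FPKM, and c1qbp, a mitochondrial protein that binds C1q, within 21.57 to 29.19 FPKM, the latter in day 90 replicate 1. LOC110013704 (C1q receptor) read 1.18 to 3.42 FPKM. LOC101168138 (C1q-like protein 2), of a family that acts at synapses, read 17.22, 28.52 and 25.7 FPKM on day 7 against 8.59, 17.88 and 7.18 FPKM on day 0. Those days overlapped, with a log2 difference of 1.09 ± 0.43 (adjusted p = 0.46, limma).

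IRF2-binding proteins, transcriptional co-repressors that are not known as interferon-induced, had the narrowest spread, and the member with the lowest F test p was among them. irf2bp2 read 56.49, 60.88 and 62.15 FPKM on day 0, all below the 64.41 to 85.4 FPKM of the other 17 libraries, as for 0.288% of all genes. Day 120 reached 77.66, 70.36 and 85.4 FPKM and day 150 72.01, 77.14 and 73.4 FPKM. The log2 difference from day 0 was 0.37 ± 0.08 on day 120 (adjusted p = 0.135, limma) and 0.31 ± 0.08 on day 150 (adjusted p = 0.258).

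LOC101171800 (IRF2-binding protein 2-B) had the smallest F test p among the members, with an adjusted p of 0.126 over 7 days and 0.107 over days 7 to 150 (limma). It read 16.0, 15.12 and 16.51 FPKM on day 7, 14.79, 17.07 and 16.96 FPKM on day 90, and 20.43, 20.49 and 20.98 FPKM on day 150. The 1 library of another day within the range of day 150 was day 30 replicate 2 at 20.73 FPKM. LOC111946818 (IRF2-binding protein-like B) was lower at day 90, with 13.26, 13.2 and 14.68 FPKM against a median of 15.83 FPKM elsewhere (log2 difference -0.21 ± 0.06, adjusted p = 0.163, limma). The other 2 genes of the class, LOC111948510 and LOC101155950, stayed within 12.86 to 16.39 FPKM and 6.88 to 9.42 FPKM.

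ifrd1, a stress-responsive regulator that carries interferon only in its name, was the 1 member with all 3 day 90 libraries above the 17 others, where 0.395% of all genes had that order. It read 58.9, 58.78 and 60.28 FPKM at day 90 and 37.85 to 55.89 FPKM elsewhere. The day 90 libraries agreed closely here, and the log2 difference was 0.33 ± 0.07 (adjusted p = 0.0729, limma). It passed in 1 of the 20 fits that left out 1 library, that without day 120 replicate 3 (adjusted p = 0.0314). LOC101160235 (ifrd2) and prkra, an activator of PKR, ranged over 3.54 to 6.61 FPKM and 11.62 to 19.34 FPKM.

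**Figure D5:**
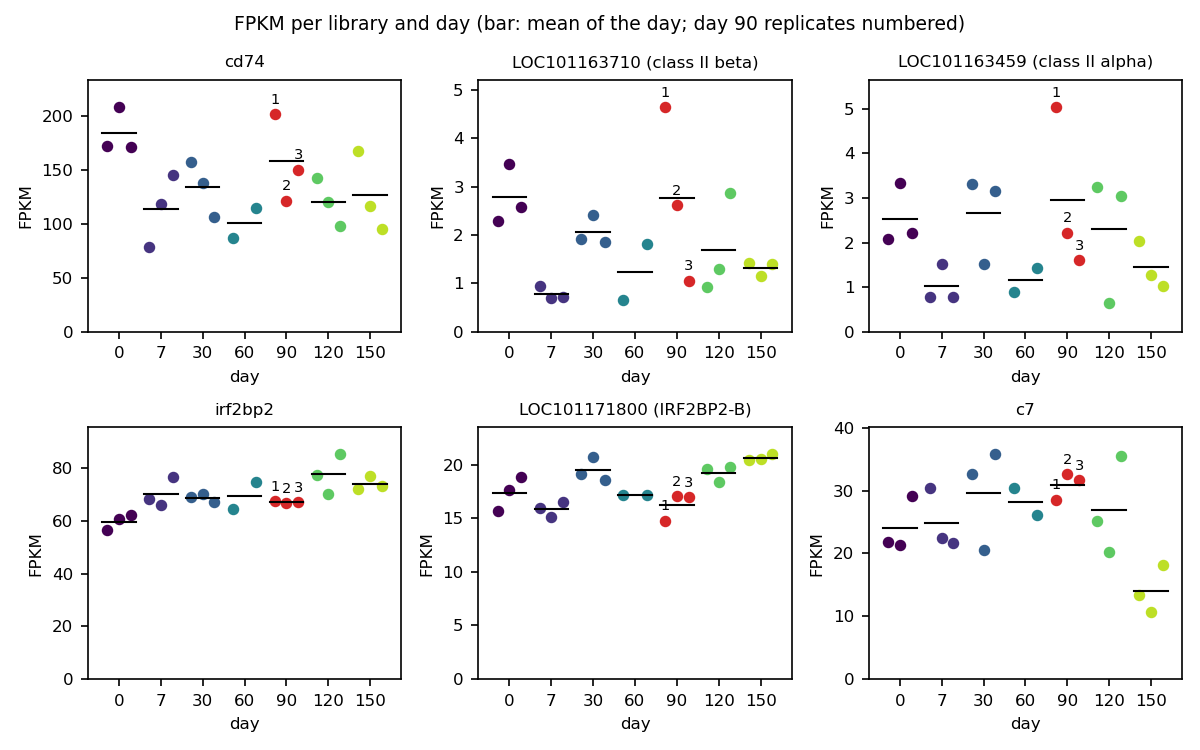
Points are single libraries by day on a linear FPKM axis from 0, bars are the mean of the day, and numbers name the day 90 replicates. The 3 class II genes of the upper row are lower on day 7 than on day 0, irf2bp2 is lowest on day 0, LOC101171800 has its lowest means on days 7 and 90, and c7 on day 150.

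Across the days, no other comparison called a member. The F test over 7 days called 0 of 70 members, beside 0.0941% of all genes, with 19 members at an unadjusted p under 0.05 where 13.1% of all genes had one. Over days 7 to 150 it called 0, again beside 0.0941%, with 16 members at an unadjusted p under 0.05 beside 13% of all genes. Without day 90 replicate 2 each F test called 3 members, where 0.232% and 0.27% of all genes were called. Both held socs3 and IFI44-like, and the second also c6.

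Against day 0, the count of members called was 0 in both directions on days 30, 60, 120 and 150. Beside it stood 0% of all genes higher on day 30, 0.00627% on day 60, 0.0251% on day 120 and 0% on day 150. At an unadjusted p under 0.05, day 7 had 4 members higher and 4 lower, beside 4.49% and 4.43% of all genes. The counts were 5 and 0 on day 30, beside 5.49% and 3.14%, and 2 and 3 on day 60, beside 3.8% and 3.13%. They were 5 and 2 on day 120, beside 6.08% and 3.39%, and 6 and 3 on day 150, beside 6.4% and 3.21%. The members' share was below that of all genes or within 3 percentage points of it on each of these days. The slope per 30 days called 0 members (0% of all genes higher, 0.00627% lower), with 4 higher and 0 lower at an unadjusted p under 0.05, beside 7.37% and 3.83% of all genes.

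Other genes of the same pathways were taken from lists of names. For day 90 against the other days, 0 of 4 JAK kinases, 0 of 10 antigen processing genes, 0 of 14 antiviral genes, 0 of 7 complement regulators and receptors and 0 of 20 cytokine receptors and regulators were called in either direction. Their median log2 differences were 0.02, 0.22, 0.03, -0.13 and 0.05. Day 90 replicates 1, 2 and 3 were above all 17 libraries of the other days in 7.32%, 3.77% and 7.45% of all genes. Among the antigen processing genes, replicate 1 was so in 5 of 10, replicate 3 in 1 and replicate 2 in 0. psmb8 and psmb9, catalytic subunits of the immunoproteasome, read 11.56, 2.31 and 4.12 FPKM and 8.49, 0.92 and 2.36 FPKM in day 90 replicates 1, 2 and 3. Both were far higher in replicate 1 than in the other 2. Among the antiviral genes the counts were 5 of 14 in replicate 1, 2 in replicate 3 and 0 in replicate 2. One of them, rsad2 (viperin), read 28.57, 1.87 and 8.27 FPKM in replicates 1, 2 and 3. psmb8, psmb9 and rsad2 are single genes of their lists, and their values on other days are not given here. The cytokine receptors and regulators had another order, with 3 of 20 in replicate 1, 1 in replicate 2 and 7 in replicate 3. The JAK kinases had 1, 0 and 1 of 4, and the complement regulators and receptors 0 in each. cish, a further gene of the SOCS family that the description rule does not take in, is among these 20 cytokine receptors and regulators. Its log2 difference from the other days was 0.44 ± 0.12 (adjusted p = 0.163, limma), and no gene of that list had a smaller adjusted p.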

How the data were processed

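Poly(A)-selected, strand-specific RNA libraries of 20 samples were read from both ends, per the labels' protocols. The table the authors deposited holds FPKM values, as its column names say. According to the submitters' processing notes, the tools included RSEM (1.2.12) and Bowtie2 (2.2.5), and the genome build is not given in the sources used here. RSEM can divide fragments between genes of like sequence. Depth is unknown, so no counting error is given.

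The 15947 of 22615 genes whose mean reached 1 FPKM were tested on log2(FPKM + 1) in R (4.3.3) with limma (3.58.1). This scale understates changes of low genes. One linear model had a mean per day and a second a slope over days. Spread was shared by all samples (13 residual degrees of freedom), the prior variance followed the mean level, tests were two-sided, and p was adjusted by Benjamini-Hochberg over all genes tested. The comparisons with day 0 share its 3 libraries. The labels do not say that libraries came from separate fish, so p-values measure only the spread between these samples. The fits were also run on simulated data with independent noise and an equal shift of all day 90 libraries. That run cannot show how they behave where 1 day 90 library departs from the others.

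Members, lists and alternatives were chosen with earlier results of these data known. Named genes were those called, up to 4 per class by F test p and 2 by mean, all STAT and SOCS genes, the 3 highest and 3 lowest per day, genes between 0 and 5 FPKM or more, and the 6 widest at day 90, giving 61 of 70. Of the other 9, ifih1 and ifi35 were picked after their values were seen and 7 complete their classes. Values of 1 member are not reported here, though it stays in all counts. RefSeq's table for ASM223467v1 held all 70 identifiers and served for names and gene order. Lists were matched by symbol, synonym or protein description, and the description patterns were written with the table in view. Tables and plots used Python (3.11.15), pandas (2.3.3), numpy (2.4.6) and matplotlib (3.10.9).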

Additional observations from a re-analysis of the deposited data

How the results depend on the processing

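The count of members called for day 90 against the other 6 days was 1. It was 0 at a mean of at least 5 FPKM, since socs3 is then not tested, and 0 without day 90 replicates 1 and 3. With 1 library left out it ran from 0 to 13, with 13 where day 90 replicate 2 was dropped, 2 where day 120 replicate 3 was, and 0 on dropping any one of day 0 replicate 1, day 7 replicate 1, day 30 replicates 1 and 3, day 60 replicates 1 and 2, day 90 replicates 1 and 3 and day 150 replicate 1. Day 90 against day 0 ran from 0 to 11, and each F test from 0 to 3, the upper values being without day 90 replicate 2. Among fits with 1 library left out, shares of all genes are given only for those without day 90 replicate 2. Counts from the other such fits are therefore not a result about the members alone. The other 6 comparisons stayed at 0 under every alternative run. Without day 90 replicates 1 and 3, where day 90 is a single library assumed to vary like the rest, log2 differences from the other days turned to -0.056 for irf9, -0.19 for LOC101158892, -0.34 for LOC101155085, -0.29 for ifi35 and -0.16 for ifih1, and that of LOC100144382 from day 0 to -0.45. The cause was not tested. No paired analysis was possible because the labels carry no replicate numbers and name no shared fish or batch. With 2 or 3 libraries a day and unknown depth, small changes of low genes could not be told from noise.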
